A study of Mus musculus with 26 samples.

Results

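The 10 genes described here encode core parts of the Notch pathway: the receptors Notch1, Notch2 and Notch4, the ligands Jag1, Jag2, Dll1 and Dll4, the DNA-binding factor Rbpj, and the target genes Hes1 and Hey1. They were chosen by symbol from the 13641 genes of the deposited expression table, all 10 were in it, and all 10 passed the filter on low values. RNA was sequenced from pancreatic islets, which were picked by hand from C57BL/6J mice and pooled, several to a sample. Islets of newborn mice at postnatal day 5 were sorted into small ones (9 libraries) and large ones (11 libraries), and islets of 2.5-month-old mice served as the adult group (6 libraries). No genetic change or treatment is given in the labels for any group. The libraries fell into 3 batches. Small libraries numbered 4, 3 and 2 in batches 1, 2 and 3, and large ones 4, 4 and 3. Adult libraries were made in batch 2 (4) and batch 3 (2) and not in batch 1. Separate animals are not named as the source of the libraries, so p-values measure the spread between libraries only.

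Notch proteins are receptors on the cell surface that are switched on by ligands on a neighbouring cell. Binding lets proteases cut the receptor, first outside the membrane and then within it, where γ-secretase acts, and the freed inner part moves to the nucleus. There it joins Rbpj on DNA and turns on genes of the Hes and Hey families, which encode repressors of transcription. In the developing pancreas, Notch signalling through Hes1 holds back Neurog3, the factor that starts endocrine cell formation, and keeps progenitors undifferentiated. In blood vessels, Dll4, Jag1, Notch1 and Notch4 guide sprouting and arterial identity, and islets are densely vascularised.

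Expression is given as FPKM, fragments scaled to gene length and library depth, as the authors deposited it. Between 13.8 and 28.0 M (mega) fragments per library were recovered from the FPKM steps, and the 10 genes had 46 to 6971 fragments in any library. The libraries had the summed hormone and endocrine marker level of islets, 100183 to 161927 FPKM over 9 endocrine genes in neonatal and 151709 to 190659 FPKM in adult libraries. Of the neonatal libraries, large 14 stood apart by its acinar markers (3613 FPKM summed) and duct markers (498), and large 16 by its mesenchymal markers (1296). Adult library 1 had acinar markers at 3966 FPKM. Results resting on them are also given without these 3 libraries.

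Promoter windows show the DNA in front of a transcript start of 3 of these genes. Notch4 and Dll4 are a receptor and a ligand that were higher in neonatal islets, and Rbpj is the factor through which Notch receptors act, whose level was not called different. RefSeq windows (GRCm38.p6) were matched for 8 of the 10 genes, all except Hes1 and Hey1, and each holds the 250 bases before a transcript start, read along the gene's strand. Capitals mark the core word bound by Rbpj, TGGGAA, or its reverse complement TTCCCA, and no matches overlapped. The windows are chr17:34564045-34564294 for Notch4, chr2:119325534-119325783 for Dll4 and chr5:53590096-53590345 for the first of Rbpj's windows, all on the plus strand. That of Rbpj lies inside the annotated gene (chr5:53466152-53657362), before a transcript start within it.
Notch4: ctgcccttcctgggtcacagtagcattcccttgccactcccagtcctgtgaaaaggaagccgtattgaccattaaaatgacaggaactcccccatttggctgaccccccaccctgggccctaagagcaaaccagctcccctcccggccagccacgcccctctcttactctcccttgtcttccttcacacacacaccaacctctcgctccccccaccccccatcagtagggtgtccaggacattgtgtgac
Dll4: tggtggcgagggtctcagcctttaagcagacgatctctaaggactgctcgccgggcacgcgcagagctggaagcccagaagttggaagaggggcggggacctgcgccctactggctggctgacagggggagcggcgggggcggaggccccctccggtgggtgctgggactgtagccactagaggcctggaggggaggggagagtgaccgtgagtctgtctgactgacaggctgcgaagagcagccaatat
Rbpj: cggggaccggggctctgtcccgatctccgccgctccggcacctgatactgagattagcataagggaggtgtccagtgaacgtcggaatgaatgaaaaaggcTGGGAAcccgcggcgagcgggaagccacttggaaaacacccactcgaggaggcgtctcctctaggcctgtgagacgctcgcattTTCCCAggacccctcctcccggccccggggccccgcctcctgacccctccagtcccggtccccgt
The Rbpj window holds TGGGAA beginning 149 bases and TTCCCA beginning 65 bases before the start. The word was found in 2 of the 10 windows of these genes, both of Rbpj, which overlap and share the second match. Of all 32851 windows of that length, 21.6% hold it on either strand. The windows of the 8 genes were 56% to 87.2% G and C, the highest being that of Jag2, against a median of 52.4% over all windows. A match is only a run of letters, and its absence from a window says nothing about Rbpj binding.

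Neonatal islets had more RNA of all 3 receptors, of the ligands Jag1, Jag2 and Dll4 and of the targets Hes1 and Hey1 than adult islets, while Dll1 and Rbpj were not called. These 8 genes were higher in every one of the 20 neonatal libraries than in any of the 6 adult ones, and the same was so within batch 2 and within batch 3. Among all 13402 genes tested, 20.2% had every neonatal library above every adult one, 44.2% had this in batch 2, 41.8% in batch 3 and 28.2% in both. Every neonatal library lay below every adult one for 5.21%. By limma with a term for batch, 8 of the 10 genes were called higher in neonatal islets and 0 lower, where 46.8% of all genes were called higher and 21.1% lower, 67.9% in all. A call is a p under 0.05 after Benjamini-Hochberg adjustment across the genes tested. At an unadjusted p under 0.05 the count was also 8. The median log2 change of the 10 was 1.07, and that of all genes was 0.16. In bulk tissue, more cells of a type and more RNA per cell cannot be told apart.

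**Figure D1:**
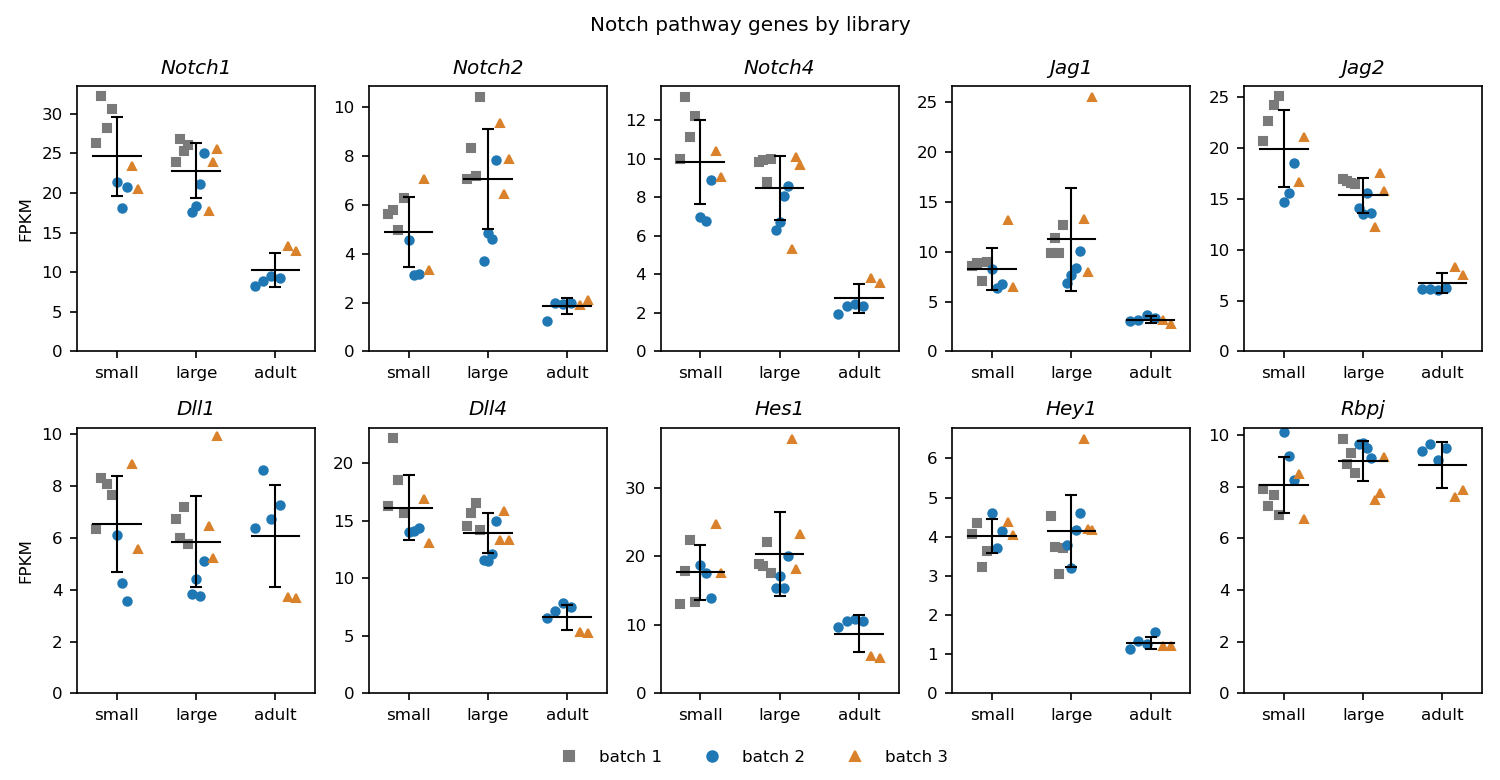
FPKM of the 10 Notch pathway genes in each library (y axis) for neonatal small, neonatal large and adult islets (x axis). Each point is 1 library, its shape and colour give the batch, and black lines are the group mean and SD. Points of the adult libraries lie below all neonatal ones for 8 genes, and for Dll1 and Rbpj the groups overlap.

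Scaling moved the median of all genes, and changes are therefore also given relative to it. The median was 0.16 as deposited, -0.019 with median-of-ratios size factors and -0.061 when libraries were quantile normalized. Genes called higher and lower numbered 6272 and 2824 as deposited, 4475 and 4664 after the first rescaling, and 4026 and 5021 after the second. The 8 genes stayed called higher under both. Rbpj, by contrast, was called lower under both.

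Markers of several other cell types moved with these genes. All 14 endothelial markers, Pecam1 and Cdh5 among them, were called higher in neonatal islets (median log2 change 1.57). Their summed level was 492 to 791 FPKM in neonatal and 184 to 232 FPKM in adult libraries. Of 11 mesenchymal and pericyte markers, 10 were called higher, with sums of 206 to 1296 and 76.3 to 141 FPKM. All 7 duct markers tested were higher, with sums of 168 to 498 and 116 to 155 FPKM. The defining markers were above 0 in every library for these 3 lists. All 3 erythroid markers tested (median log2 change 3.96) and both proliferation markers, Mki67 and Top2a (median 3.68), were higher as well. Of 9 endocrine markers 2 were called higher and 3 lower, namely Ins2 (-0.62), Gcg (-0.47) and Chga (-0.25). Of 9 acinar markers tested, limma called 0, and 1 had an unadjusted p under 0.05. Of 7 macrophage markers tested 1 was called higher and 2 lower, and of 4 Schwann markers 1 higher and 1 lower. The part of these cells in the results was not tested, and the level of each gene per 100 FPKM of endothelial markers is given below.

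Notch1, the most abundant of these 3 receptors at both ages, had a lowest, median and highest FPKM of 18.1, 23.4 and 32.3 in small, 17.6, 23.9 and 26.8 in large and 8.21, 9.39 and 13.3 in adult islets. The lowest neonatal library thus lay above the highest adult one, and the highest 3 values, 32.3, 30.6 and 28.2, all came from small libraries of batch 1. Notch1 (chr2:26457903-26516663, minus strand) averaged 23.6 ± 4.21 FPKM in neonatal (SD, n = 20) and 10.3 ± 2.15 in adult islets (n = 6). Its log2 change was 0.96 ± 0.083 (SE, adjusted p = 1.08e-10), or 0.81 above the median of all genes, with 1.09 in batch 2 and 0.72 in batch 3.

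Notch2, a receptor that binds Jag1 in liver and kidney development, was the least abundant of the 3 in every group by its median. It had 3.11, 4.97 and 7.04 FPKM (lowest, median, highest) in small, 3.69, 7.19 and 10.4 in large and 1.24, 1.96 and 2.09 in adult islets. The ages did not overlap, and large islets reached higher than small ones. Notch2 (chr3:98013527-98150361, plus strand) averaged 6.08 ± 2.09 FPKM in neonatal (SD, n = 20) and 1.86 ± 0.31 in adult islets (n = 6). It changed by 1.05 ± 0.13 on the log2 scale (SE, adjusted p = 6.97e-08), or 0.89 above the median, with 0.92 and 1.27 in batches 2 and 3.

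Notch4, known mainly from endothelial cells, had 6.76, 10 and 13.2 FPKM in small, 5.3, 8.79 and 10.1 in large and 1.96, 2.42 and 3.8 in adult islets. Its lowest neonatal value was that of large library 14, and it still lay above the adult maximum. The mean of Notch4 (chr17:34564268-34588503, plus strand) was 9.09 ± 2 FPKM in neonatal (SD, n = 20) and 2.75 ± 0.742 in adult islets (n = 6). The log2 change was 1.26 ± 0.099 (SE, adjusted p = 1.67e-11). It was 1.36 in batch 2 and 1.07 in batch 3, and 1.11 above the median of all genes.

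Among the ligands, Jag2 was the most abundant in neonatal islets. It had 14.7, 20.7 and 25.1 FPKM in small, 12.2, 15.8 and 17.5 in large and 6.02, 6.17 and 8.31 in adult islets. The 4 adult libraries of batch 2 lay within 6.02 to 6.22 FPKM, below the 2 of batch 3 at 8.31 and 7.46. Jag2 (chr12:112907819-112929776, minus strand) averaged 17.4 ± 3.58 FPKM in neonatal (SD, n = 20) and 6.71 ± 0.954 in adult islets (n = 6). Its log2 change was 1.12 ± 0.07 (SE, adjusted p = 1.65e-13), 0.97 above the median, with 1.18 and 1.00 in batches 2 and 3.

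Dll4, the ligand of sprouting blood vessels, had 13.1, 15.7 and 22.2 FPKM in small, 11.5, 14.2 and 16.5 in large and 5.28, 6.84 and 7.82 in adult islets. No neonatal value fell into the adult range. Dll4 (chr2:119325784-119335962, plus strand) averaged 14.9 ± 2.48 FPKM in neonatal (SD, n = 20) and 6.6 ± 1.08 in adult islets (n = 6). It changed by 0.98 ± 0.084 (SE, adjusted p = 1.11e-10), 0.82 above the median, with 0.80 in batch 2 and 1.29 in batch 3.

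Jag1, a ligand with roles in bile duct and vessel formation, varied most among the large islets. It had 6.36, 8.31 and 13.2 FPKM in small, 6.9, 9.84 and 25.5 in large and 2.72, 3.15 and 3.7 in adult islets. Large library 16, with the highest mesenchymal marker sum, held the 25.5, and the next highest value was 13.3 in large 14. Jag1 (chr2:137081456-137116644, minus strand) averaged 9.9 ± 4.25 FPKM in neonatal (SD, n = 20) and 3.19 ± 0.326 in adult islets (n = 6). Its log2 change was 1.24 ± 0.16 (SE, adjusted p = 2.68e-07), or 1.08 above the median, and 1.11 without the 3 libraries that stood apart. It was 1.00 in batch 2 and 1.66 in batch 3.

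Dll1 stood apart from the other ligands. Dll1 marks cells that send Notch signals to their neighbours in many embryonic tissues, the pancreas included. It had 3.55, 6.36 and 8.86 FPKM in small, 3.78, 5.77 and 9.93 in large and 3.68, 6.56 and 8.62 in adult islets, and the 3 groups overlapped. Dll1 (chr17:15367354-15376872, minus strand) averaged 6.16 ± 1.78 FPKM in neonatal (SD, n = 20) and 6.08 ± 1.98 in adult islets (n = 6). The log2 change of -0.11 ± 0.17 was not called (SE, adjusted p = 0.594).

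Within batches, however, Dll1 differed in opposite directions. In batch 2 all 7 neonatal libraries (3.55 to 6.13 FPKM) lay below all 4 adult ones (6.38, 8.62, 6.75 and 7.29). In batch 3 all 5 neonatal libraries (5.23 to 9.93 FPKM) lay above the 2 adult ones (3.74 and 3.68). The log2 differences were -0.60 in batch 2 and 0.77 in batch 3. A fit to batch 2 alone called Dll1 lower in neonatal islets (adjusted p = 0.000473) and a fit to batch 3 alone called it higher (adjusted p = 0.0322). Of all genes, 17.3% had every neonatal library below every adult one in batch 2, and 41.8% had every one above in batch 3.

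In GENCODE M21, exons of 3 of these genes overlap noncoding genes on the opposite strand, over 20.5% of the exon bases of Dll1 (A930024N18Rik), 5.56% of those of Dll4 (Gm14207), and 7.5% (0610009E02Rik) and 2.91% (Gm13568) of those of Notch1. Whether reads were counted by strand is not given in the sources used here, so within these stretches reads of both strands cannot be told apart. Notch2 shares 5.02% of its exon bases with Gm42820 on the same strand.

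Hes1 and Hey1, the targets, were both higher in neonatal islets. Hes1, which represses Neurog3 in the embryonic pancreas, had 13, 17.6 and 24.7 FPKM in small, 15.3, 18.6 and 37.1 in large and 5.18, 10.1 and 10.8 in adult islets. The 37.1 belonged to large library 14, which also had the highest duct marker sum. Hes1 (chr16:30064384-30067796, plus strand) averaged 19.1 ± 5.29 FPKM in neonatal (SD, n = 20) and 8.71 ± 2.66 in adult islets (n = 6). It changed by 1.10 ± 0.17 (SE, adjusted p = 4.6e-06), 0.94 above the median of all genes, and by 1.02 without the 3 libraries that stood apart.

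Hey1, a target in blood vessels among other tissues, was the least abundant of the 10 genes by its median in every group. It had 3.22, 4.06 and 4.6 FPKM in small, 3.05, 4.17 and 6.51 in large and 1.14, 1.23 and 1.57 in adult islets. Its neonatal values lay close together apart from large 14 at 6.51, and the adult ones lay near 1 FPKM. Hey1 (chr3:8663359-8667256, minus strand) averaged 4.09 ± 0.73 FPKM in neonatal (SD, n = 20) and 1.29 ± 0.154 in adult islets (n = 6). Its log2 change was 1.19 ± 0.086 (SE, adjusted p = 3.57e-12), with 1.11 and 1.32 in batches 2 and 3. Because 1 was added to each FPKM before the log, changes of such low genes are understated, and with 0.1 in its place Hey1 changed by 1.64.

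Rbpj, the DNA-binding partner of Notch receptors, overlapped between all groups. It had 6.75, 7.9 and 10.1 FPKM in small, 7.48, 9.16 and 9.83 in large and 7.61, 9.2 and 9.66 in adult islets. Rbpj (chr5:53466152-53657362, plus strand) averaged 8.57 ± 1.02 FPKM in neonatal (SD, n = 20) and 8.84 ± 0.878 in adult islets (n = 6). Its log2 change of -0.007 ± 0.056 was not called (SE, adjusted p = 0.918), and the batches gave -0.0093 and 0.015. Relative to the median of all genes it was -0.16, and both rescalings called it lower in neonatal islets (-0.19, adjusted p = 0.00403, with median-of-ratios factors, and -0.18, adjusted p = 0.00528, when quantile normalized).

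**Figure D2:**
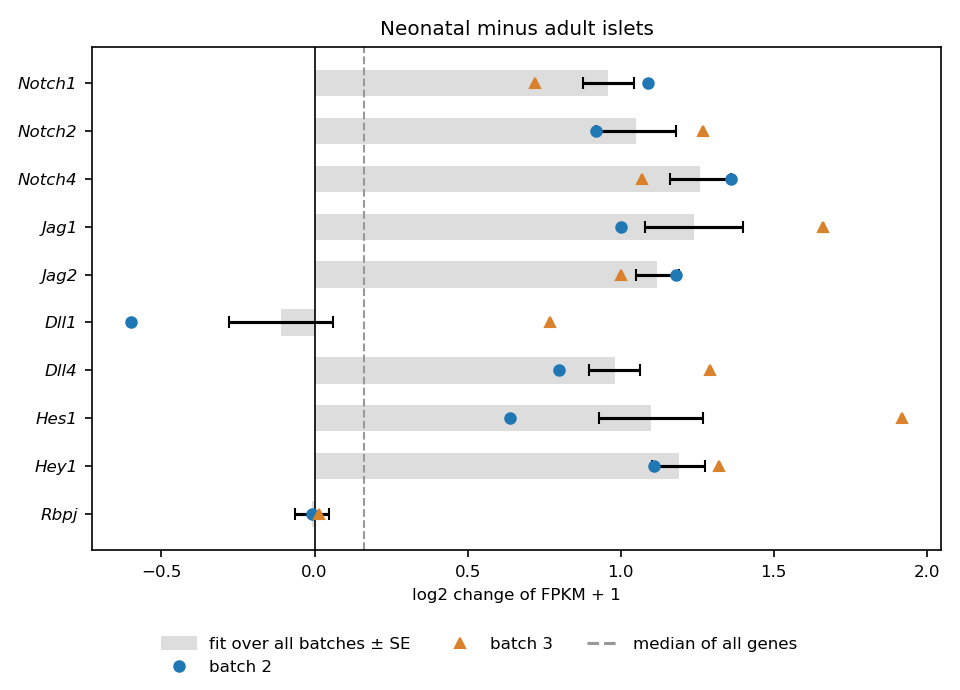
Neonatal minus adult log2 change of FPKM + 1 (x axis) for each gene. Grey bars with black lines are the fit over all batches ± SE, circles and triangles are the differences of means within batches 2 and 3, and the dashed line is the median of all genes (0.16). Within-batch points lie on opposite sides of 0 for Dll1 (-0.60 and 0.77) and far apart for Hes1 (0.64 and 1.92).

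The difference between the ages was itself not the same in both batches for 3 of the 10 genes. By limma's test of that interaction, batch 2 minus batch 3 was -1.37 ± 0.26 for Dll1 (SE, adjusted p = 0.000504), -1.28 ± 0.24 for Hes1 (adjusted p = 0.000552) and -0.50 ± 0.13 for Dll4 (adjusted p = 0.00705). Such a difference was called for 43.2% of all genes, 24.9% in the higher and 18.3% in the lower direction. Hes1 was 9.73, 10.6, 10.8 and 10.5 FPKM in the adult libraries of batch 2 and 5.43 and 5.18 in those of batch 3, against 13.9 to 20.1 and 17.6 to 37.1 in the neonatal ones. Dll4 was 6.57 to 7.82 FPKM in adult islets of batch 2 and 5.34 and 5.28 in those of batch 3. All 3 genes stayed called without the libraries that stood apart (-1.24, -1.09 and -0.61 for Dll1, Hes1 and Dll4). Notch1 (0.37, adjusted p = 0.0862) was called only without large 16 (0.42, adjusted p = 0.0459), and Jag1 (-0.65, adjusted p = 0.168) only without large 15 (-0.84, adjusted p = 0.0286). The adult libraries of batch 2 had 21.5 to 23.0 M fragments and those of batch 3 had 15.4 and 14.5 M fragments, and the part of depth was not tested. Sox9, a duct and progenitor marker, also gave an interaction in the same direction (-0.96 ± 0.37, adjusted p = 0.047). It was the only 1 of the 7 duct markers tested that was called, and their median was -0.08. Neurog3, the gene that Hes1 represses in the embryo, gave a called interaction in the opposite direction (0.56).

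Small and large neonatal islets shared the adult controls, and each differed from them in the same 8 genes. The genes called higher numbered 8 of 10 for small islets (43.1% of all genes called higher, 19.9% lower, 63% in all) and 8 of 10 for large ones (46.9% higher, 20.2% lower, 67.2% in all). Log2 changes for small and large islets were 1.00 and 0.93 for Notch1, 0.81 and 1.29 for Notch2, and 1.34 and 1.18 for Notch4. Among the ligands they were 1.07 and 1.41 for Jag1, 1.28 and 0.96 for Jag2, and 1.06 and 0.89 for Dll4. The targets gave 1.01 and 1.18 for Hes1 and 1.19 and 1.20 for Hey1. As deposited, Dll1 (-0.053 and -0.16) and Rbpj (-0.079 and 0.065) were not called in either comparison. After rescaling, limma called Rbpj lower in small islets (-0.25, adjusted p = 0.00157, with median-of-ratios factors, and -0.24, adjusted p = 0.00181, when quantile normalized). In large islets it called Rbpj lower with median-of-ratios factors (-0.14, adjusted p = 0.0431) and Dll1 lower when quantile normalized (-0.41, adjusted p = 0.0441). In a fit to batch 3 alone, Jag1 was not called in small islets (1.39, adjusted p = 0.0577).

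Between small and large islets, Jag2 was higher in small ones and Notch2 and Rbpj were lower, and the other 7 genes were not called. Of all genes, 4.96% were called higher and 12.7% lower in small islets, 17.6% in all. Jag2 changed by 0.32 ± 0.063 (SE, adjusted p = 0.00192) and Notch2 by -0.47 ± 0.12 (adjusted p = 0.00801). Both calls held when any 1 library was left out. Rbpj changed by -0.14 ± 0.05 (adjusted p = 0.0466), and this call was lost in 18 of 26 fits that left out 1 library, after both rescalings, with limma-voom on recovered counts (adjusted p = 0.0557), and without the 3 libraries that stood apart (adjusted p = 0.057). Jag1 was at -0.34 ± 0.15 (adjusted p = 0.101), and was called without large 15 (-0.40, adjusted p = 0.0475) or small 5 (-0.42, adjusted p = 0.0492), and Dll4 at 0.17 ± 0.076 (adjusted p = 0.114).

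The sizes differed most clearly in batch 1. In that batch, Jag2 was 20.7, 22.6, 24.2 and 25.1 FPKM in the small and 16.9, 16.7, 16.5 and 16.4 FPKM in the large libraries, so that the sizes did not overlap. Notch2 was 5.64, 5.8, 4.97 and 6.26 FPKM in the small and 7.04, 8.34, 7.19 and 10.4 FPKM in the large ones, again without overlap. Rbpj was 6.91 to 7.9 FPKM in small and 8.51 to 9.83 FPKM in large islets. In all, 5 of the 10 genes did not overlap in batch 1 (Jag2 and Notch4 higher, Notch2, Jag1 and Rbpj lower in small islets), where 34.7% of all genes did not. In batches 2 and 3 the sizes overlapped for all 10 genes, with 9.07% and 16.5% of all genes not overlapping. Fits to single batches called 5 of the 10 genes in batch 1, 0 in batch 2 and 0 in batch 3 by limma, and 8, 1 and 0 had an unadjusted p under 0.05. Of all genes, 37% were called in batch 1 and 0 in the others, and 47.7%, 11.2% and 4.15% had an unadjusted p under 0.05.

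The direction in the other batches was nevertheless the same for Jag2, Notch2 and Jag1, of which Jag1 was not called. Jag2 was higher in small islets by 0.45, 0.18 and 0.30 on the log2 scale in batches 1, 2 and 3. Notch2 differed by -0.46, -0.41 and -0.58, and Jag1 by -0.35, -0.18 and -0.54. Rbpj (-0.26, -0.045 and -0.087), Notch4, Dll1, Dll4 and Hes1 also kept their sign in every batch, and Notch1 and Hey1 did not. In batch 1 the small libraries held 13.8 to 16.1 M fragments and the large ones 18.5 to 20.4 M fragments. Over all batches, 6 of 11 mesenchymal markers, 3 of 7 duct markers and 1 of 14 endothelial markers were called lower in small islets. So were 3 of 7 macrophage, 2 of 4 Schwann and 1 of 3 erythroid markers, but 0 of 9 endocrine and 0 of 9 acinar ones. Their part in the difference was not tested, and neither was that of depth.

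**Figure D3:**
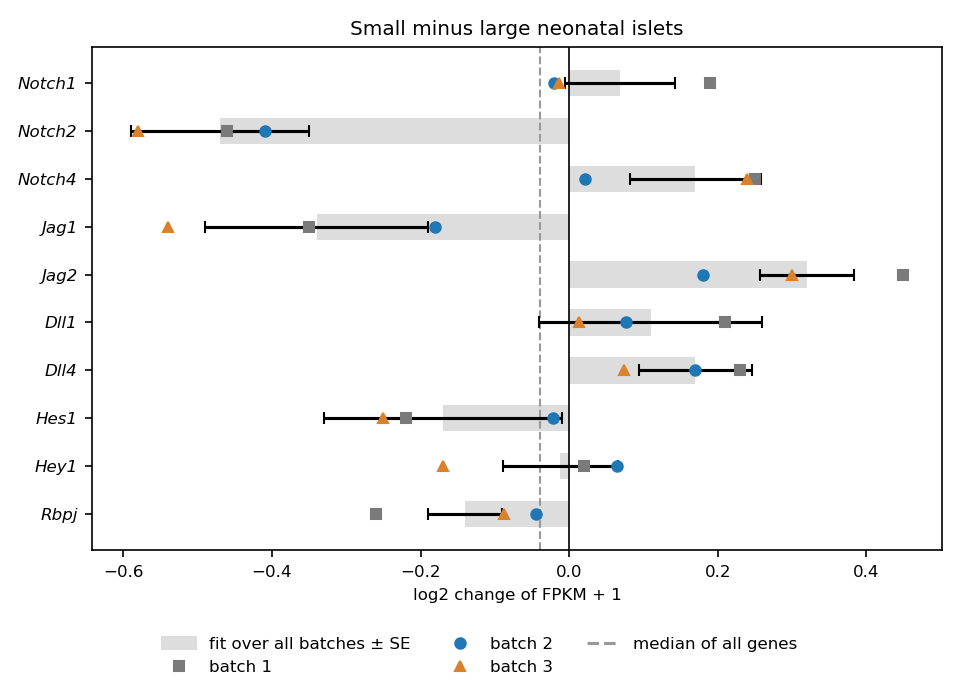
Small minus large neonatal islets, log2 change of FPKM + 1 (x axis), for each gene. Grey bars with black lines are the fit over all batches ± SE, symbols are the differences of means within each batch, and the dashed line is the median of all genes (-0.039). Jag2 lies above 0 and Notch2 and Jag1 below 0 in each of the 3 batches.

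The order of the 10 genes by level was not the same in the 3 groups. By median FPKM, small islets had Notch1 (23.4), Jag2 (20.7), Hes1 (17.6), Dll4 (15.7), Notch4 (10), Jag1 (8.31), Rbpj (7.9), Dll1 (6.36), Notch2 (4.97) and Hey1 (4.06) in falling order. Large islets had Notch1 first (23.9), then Hes1 (18.6), Jag2 (15.8) and Dll4 (14.2), and Dll1 (5.77) and Hey1 (4.17) last. In adult islets Hes1 (10.1), Notch1 (9.39) and Rbpj (9.2) led, and Rbpj exceeded Dll4 (6.84) in 6 of 6 libraries. Neighbours in each order overlapped in range, with the single exception of Jag2 above Jag1 (6.17 and 3.15 FPKM) in adult islets. Small islets had more Dll4 than Notch4 in 9 of 9 libraries, and more Dll1 than Notch2 in 9 of 9.

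Ratios within a library are free of any single scaling factor applied to it. The summed FPKM of the 4 ligands was 36.4 to 64.5 in neonatal and 19.1 to 25 in adult libraries. Dll1 made up 8.22% to 15.9% of it in neonatal and 18.2% to 34.5% in adult islets, without overlap. The ratio of Dll4 to Dll1 was 2.56 ± 0.592 in neonatal (SD, n = 20) and 1.15 ± 0.242 in adult islets (n = 6), and overlapped only through large library 16 at 1.34. The summed level of Notch1, Notch2 and Notch4, without Notch3, was 27.6 to 51.3 FPKM in neonatal and 11.4 to 19 FPKM in adult libraries. Notch1 made up 54.7% to 65% of it in neonatal and 67.1% to 71.9% in adult islets. With Notch3, which was more abundant than Notch1 by its mean in neonatal islets, the 4 receptors summed to 49 to 89.3 and 16.6 to 26 FPKM. Of that sum Notch1 made up 28.6% to 38.9% in neonatal and 46.9% to 51.3% in adult islets, and Notch3 37.9% to 51.8% and 26.8% to 31.1%. Neither share overlapped between the ages.

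Small and large islets differed in the balance of Jag2 to Jag1 and of Notch1 to Notch2 in batch 1. The ratio of Jag2 to Jag1 was 2.4 to 3.44 in the small and 1.3 to 1.72 in the large libraries of that batch. It was 1.77 to 2.74 and 1.35 to 2.04 in batch 2, and 1.26 to 3.25 and 0.618 to 2.18 in batch 3, where the sizes overlapped. The ratio of Notch1 to Notch2 was 4.66 to 5.67 in the small and 2.5 to 3.52 in the large libraries of batch 1. It was 4.71 to 6.56 and 3.19 to 4.76 in batch 2, and 3.32 to 6.14 and 1.89 to 3.71 in batch 3, and the sizes overlapped in both. These ratios were chosen with the values known and carry no test.

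Set against the endothelial markers, which were themselves higher in neonatal islets, the same 8 genes overlapped between the ages with all batches pooled. Batch 1 held no adult islets, and within batches the picture differed. Notch1 was lower in every neonatal library than in any adult one within batch 2 and within batch 3. Hes1 was so in batch 2 but higher in every neonatal library of batch 3, and Notch4 separated in the reverse directions. Within batch 2, Dll4 and Jag1 were also lower in every neonatal library than in any adult one, but they overlapped in batch 3. Notch2, Jag2 and Hey1 overlapped in both batches. The ranges that follow pool all batches. Per 100 FPKM of the 14 endothelial markers, Notch4 was 0.857 to 2.04 FPKM in neonatal and 1.07 to 1.82 in adult libraries. Hey1 was 0.51 to 1.05 and 0.519 to 0.729, Jag1 1.12 to 3.22 and 1.37 to 1.8, and Notch2 0.525 to 1.66 and 0.674 to 1.07. Notch1 was 2.87 to 4.98 in neonatal and 4.29 to 6.5 in adult libraries, Jag2 1.98 to 4.08 and 2.89 to 3.82, Dll4 1.69 to 3.42 and 2.3 to 3.82, and Hes1 2.17 to 6 and 2.34 to 5.39. Rbpj was 1.12 to 1.9 and 3.27 to 5.1, and Dll1 0.59 to 1.37 and 1.61 to 4.36, both lower in every neonatal library than in any adult one. The marker sum itself was 492 to 791 FPKM in neonatal and 184 to 232 FPKM in adult libraries. A gene of unchanged FPKM, as Rbpj and Dll1 nearly were, is therefore lower on this scale. The share of all genes that separate in this way was not taken. Which cells held these transcripts was not tested.

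**Figure D4:**
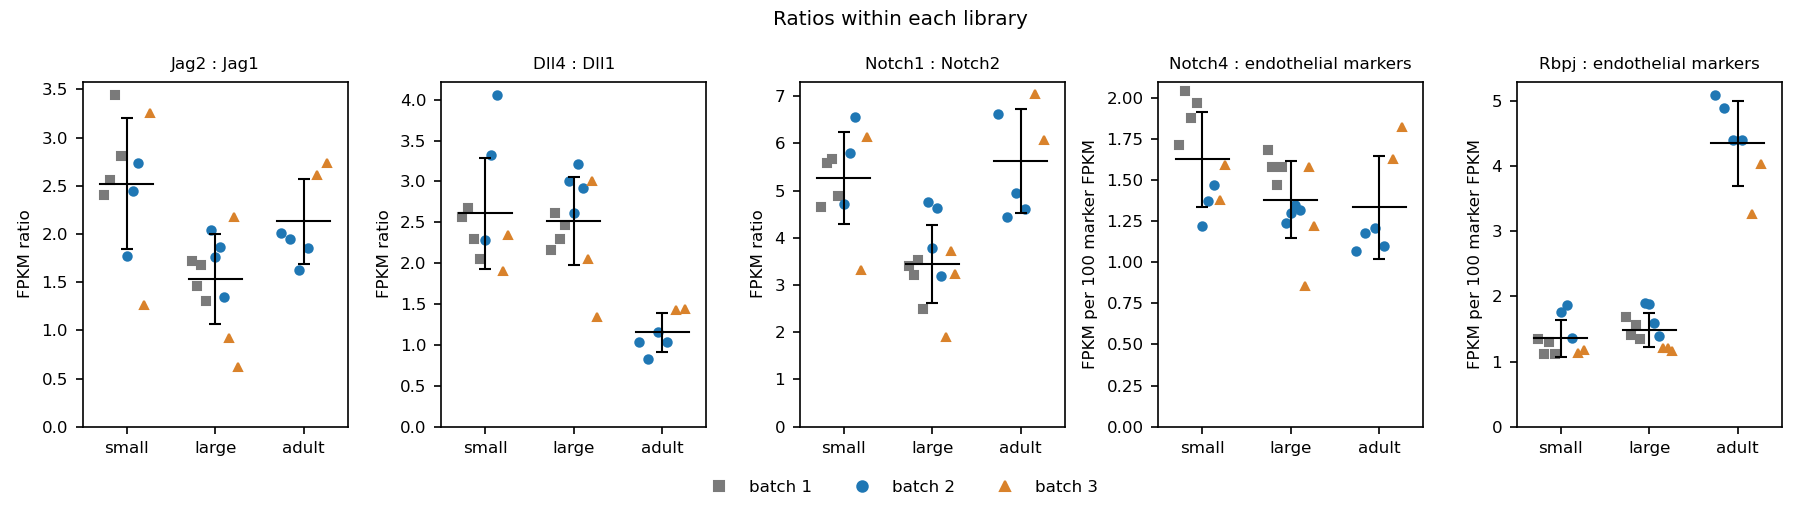
Ratios of FPKM within each library (y axes) in neonatal small, neonatal large and adult islets (x axis): Jag2 to Jag1, Dll4 to Dll1, Notch1 to Notch2, and Notch4 and Rbpj per 100 FPKM of 14 endothelial markers. Points are libraries, shape and colour give the batch, and black lines are mean and SD. With all batches pooled, Notch4 per endothelial marker overlaps between the ages. Rbpj per endothelial marker does not, while its FPKM overlaps and the marker sum is higher in neonatal islets.

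Other genes of the pathway were taken from a list of 63, of which 54 were in the table and tested. In neonatal islets 30 were called higher, 8 lower and 16 neither, with a median log2 change of 0.22 against 0.16 for all genes. Of all 13402 genes, 46.8% were called higher and 21.1% lower. With median-of-ratios factors 19 of the 54 were called higher and 14 lower, beside 4475 and 4664 of all genes. With quantile normalization they were 19 and 15, beside 4026 and 5021 of all genes. The counts by role below are to be read beside these same values. Called with the same direction in batches 2 and 3 were 35 genes, 29 higher and 6 lower. By that criterion, 43.6% of all genes were higher and 18.2% lower. The interaction of age with batch (batch 2 minus batch 3) was called higher for 14 of the 54 and lower for 8, beside 24.9% and 18.3% of all genes.

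Notch3, the receptor of vascular smooth muscle and pericytes, averaged 28.4 ± 5.37 FPKM in neonatal (SD, n = 20) and 5.95 ± 0.773 in adult islets (n = 6), a log2 change of 1.99 ± 0.091 (SE, adjusted p = 2.52e-16). Its neonatal range of 21.1 to 46.3 FPKM did not touch the adult range of 5.13 to 6.94. Dlk1, a membrane protein related to Notch ligands and a marker of fetal tissue, had 15.4 to 56.2 FPKM in neonatal and 0.24 to 0.555 in adult islets. Dlk1 changed by 4.30 ± 0.19 (adjusted p = 7e-16), the largest of the 54 fitted changes. Its change was 3.85 in batch 2 and 5.14 in batch 3, and limma called that interaction (-1.28, adjusted p = 0.000781).

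Mfng and Lfng encode enzymes that extend sugars on Notch and shift its preference between Delta and Jagged ligands. Mfng averaged 14.2 ± 2.61 FPKM in neonatal (SD, n = 20) and 1.83 ± 0.473 in adult islets (n = 6), a log2 change of 2.39 ± 0.085 (SE, adjusted p = 2.13e-18). Lfng averaged 5 ± 1.27 and 0.89 ± 0.294 FPKM and changed by 1.68 ± 0.11 (adjusted p = 7.04e-13). Of 5 genes for sugars on Notch 4 were called higher and 0 lower, against 2 and 0 after either rescaling. Pofut1 (0.27) and Rfng (0.20) lost their call under both and turned sign after quantile normalization, and Poglut1 was not called (0.031, adjusted p = 0.769).

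Of 9 genes for receptor cleavage, 7 were called higher and 1 lower, against 5 and 2 after either rescaling. Among the γ-secretase subunits, Ncstn, which encodes nicastrin, rose by 0.77 ± 0.073 (adjusted p = 6.2e-10) and Aph1a by 0.57 ± 0.065 (adjusted p = 2.01e-08). In batches 2 and 3 Ncstn changed by 0.92 and 0.54 and Aph1a by 0.72 and 0.33, and both interactions were called. Psen2 (0.14) and Psenen (0.18) were called higher as deposited but not after either rescaling, and Aph1b fell by 0.21 (log2 change -0.21, adjusted p = 0.0134).

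Among 15 genes for ligand endocytosis and Notch turnover, 3 were called higher and 4 lower, against 3 and 7 with median-of-ratios factors and 2 and 9 when quantile normalized. Neurl1b, a ubiquitin ligase acting on ligands, rose by 1.86 ± 0.11 (adjusted p = 2.62e-14), and Numbl, a relative of the Notch inhibitor Numb, by 0.87 ± 0.085 (adjusted p = 1.03e-09). In batches 2 and 3 Neurl1b changed by 2.11 and 1.41 and Numbl by 0.63 and 1.31, and both interactions were called. Fbxw7, part of the ubiquitin ligase that marks the active Notch fragment for destruction, fell by 0.75 (log2 change -0.75 ± 0.065, adjusted p = 1.31e-10), and all 20 neonatal libraries were below all 6 adult ones. Numb itself was at -0.072 ± 0.054 (adjusted p = 0.242) and was called lower after both rescalings (-0.26 and -0.21).

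Of 18 genes for nuclear co-activators and co-repressors 10 were called higher and 2 lower, against 3 and 4 with median-of-ratios factors and 4 and 3 when quantile normalized. Hdac1, a histone deacetylase gene, changed by 0.89 ± 0.055 (adjusted p = 1.25e-13). The 4 genes listed as other targets were all called higher, also after both rescalings. Heyl, a relative of Hey1, rose by 1.84 ± 0.10 (adjusted p = 1.44e-14), and Nrarp, which feeds back to limit Notch activity, by 1.79 ± 0.073 (adjusted p = 2.78e-17). Hes6 rose by 1.30 ± 0.062 (adjusted p = 5.58e-16). It was listed here as a relative of Hes1, and whether it answers to Notch was not tested. Heyl averaged 9.9 ± 3 FPKM in neonatal and 2.07 ± 0.551 in adult islets, and Nrarp 11.3 ± 1.52 and 2.65 ± 0.239. Neurog3, the gene that Hes1 represses in the embryo, averaged 3.99 ± 1.19 FPKM in neonatal (SD, n = 20) and 1.98 ± 1.34 in adult islets (n = 6), and its ranges overlapped with all batches pooled (log2 change 0.85 ± 0.12, adjusted p = 6.74e-07). In batch 2 it was 2.33 to 4.43 FPKM in neonatal and 0.973 to 1.37 in adult libraries, without overlap. In batch 3 it was 3.84 to 7.76 and 2.66 to 4.44 FPKM. Of all genes, 44.2% had every neonatal library above every adult one in batch 2.

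**Figure D5:**
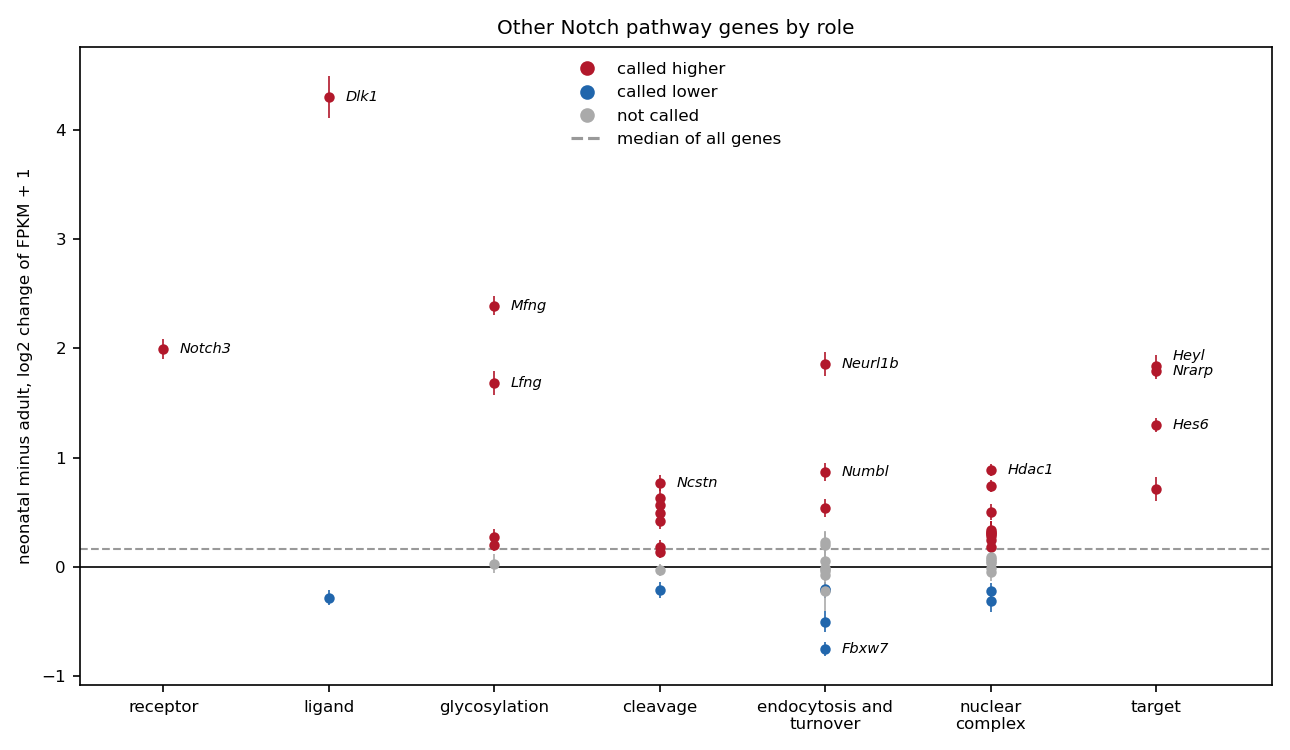
Neonatal minus adult log2 change of FPKM + 1 (y axis) for 54 other Notch pathway genes grouped by role (x axis). Points are genes with SE from the fit, colour gives the call, and the dashed line is the median of all genes (0.16). Dlk1 lies highest at 4.30, and Fbxw7 lowest at -0.75.

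Between small and large islets, 11 of these 54 genes were called higher and 6 lower in small ones, beside 4.96% and 12.7% of all genes. With median-of-ratios factors the counts were 12 and 2, and with quantile normalization 11 and 3. Shares of all genes after these rescalings are not given for this comparison, so the rescaled counts cannot be set against them. The targets Heyl (-0.42 ± 0.092, adjusted p = 0.00386) and Hey2 (-0.40 ± 0.098, adjusted p = 0.00857) were lower in small islets, also after both rescalings. Lfng was called lower as deposited (-0.29 ± 0.10, adjusted p = 0.0463) but after neither rescaling (-0.25, adjusted p = 0.0793, and -0.23, adjusted p = 0.0874). Hes6 was higher by 0.16 (adjusted p = 0.0434), and Notch3 was not called (-0.063). Without a batch term 3 of the 54 were called, and in fits to batch 2 or batch 3 alone 0.

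Within groups, the 10 genes varied from library to library in more than one pattern. After each group's mean in each batch was removed, log2 levels over the 26 libraries correlated at 0.87 for Notch1 with Notch4 and at 0.70 for Jag1 with Dll1 (Pearson r). Notch2 went with Jag1 (0.64) and against Jag2 (-0.55), and Hes1 went against Jag2 (-0.62). Over all 13402 genes, the ones most like Notch4 were Hspg2 (0.92), Kdr (0.91) and Dysf (0.90), of which Kdr is on the endothelial list. Plxnd1 (0.93), Pik3c2b (0.93) and Lamc1 (0.92) were most like Notch1, and Erbb2 (0.96), Smad3 (0.94) and Cgnl1 (0.93) most like Notch2. For Jag1 they were Nkd1, Prag1 and Mylk (0.96 each), for Jag2 Usp20, Zfhx2 and Ap2a1 (0.89 each), and for Dll1 Fbxl7 (0.86), Plpp1 (0.84) and Ackr1 (0.82).

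Dll4 was most like Pogz (0.86), Zfyve1 (0.85) and Frrs1 (0.80), Hes1 most like Pcna (0.90), Commd10 (0.89) and Hmgn1 (0.89), Hey1 most like Atg101 (0.79), Rcbtb2 (0.78) and Eepd1 (0.78), and Rbpj most like Smim13 (0.87), Kif2a (0.83) and Spast (0.83). These correlations share libraries and depth, and they describe these libraries only.

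The authors' deposited table of their own comparison gave the same 8 genes a positive log2 fold change with an FDR under 0.05, where 67.5% of all genes had such an FDR. In the authors' deposited table the values were 1.47 for Hey1, 1.31 for Notch4, 1.29 for Jag1, 1.24 for Notch2, 0.98 for Jag2, 0.90 for Hes1, 0.82 for Dll4 and 0.79 for Notch1, and Hey1, Notch4, Jag1 and Notch2 carried the mark UP. Rbpj had -0.23 (FDR 0.00248) and Dll1 -0.45 (FDR 0.0546) in the authors' deposited table. Its median log2 fold change over all genes was -0.058.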

How the data were processed

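Per the labels' protocols, RNA of hand-picked islets was sequenced after removal of ribosomal RNA. Per the submitters' processing notes, STAR 2.6a, HTSeq 0.11.1, edgeR and the build mm10 were used, with no roles stated. The authors deposited FPKM per gene and library, and a table of their own comparison with log2 fold changes and log2 CPM, F scores, and p-values and FDR q-values. The FPKM values were used here.

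From these FPKM, log2(FPKM + 1) was fitted with limma 3.58.1 (R 4.3.3), with terms for group and batch and a trended, robust prior. The filter kept the 13402 of 13641 genes that reached an FPKM of 1 in 6 or more libraries. P-values are two-sided and Benjamini-Hochberg adjusted over all kept genes, with a threshold of 0.05. The batch interaction was fitted on batches 2 and 3. Fragment counts were recovered from the FPKM steps for 13628 genes (100.0% of their values whole within 0.05 fragments) and used for depth and an alternative fit with limma-voom. The fits were tested on simulated data. Other tools were Python 3.11.15, pandas 2.3.3 and matplotlib 3.10.9.

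The 10 genes, the other pathway genes and the marker lists were chosen with earlier results of these data known. Other pathway genes were named by largest change (up to 12) among those called with the same direction in batches 2 and 3, together with the γ-secretase subunits, Notch3, Heyl, Nrarp, Lfng and Numb. Hey2, Rfng, Pofut1, Poglut1, Sox9 and Neurog3 were named after their values were seen. Of 63 listed pathway genes, 9 were not analysed here. A result that the naming rule covers is not reported here.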

Additional observations from a re-analysis of the deposited data

Results flagged for a closer look

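The difference between neonatal and adult islets was not the same in both batches that held adult islets for 3 genes. Batch 2 minus batch 3 was -1.37 for Dll1, -1.28 for Hes1 and -0.50 for Dll4 by limma's interaction test, which called 43.2% of all genes.

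Single libraries lay apart from the rest of their group in 2 of 20 combinations of gene and group examined, and chance flags about 1 in 20 groups. Notch2 was 1.24 FPKM in adult library 1, against 1.89 to 2.09 in the other adult libraries, and this library had the highest acinar marker sum. Jag1 was 13.2 FPKM in small library 5, against 6.36 to 8.93 in the other small ones. This library also had the highest mesenchymal (644 FPKM) and endothelial (750 FPKM) marker sums of the small ones, and their part was not tested. Large islets, with 11 libraries, were not examined in this way.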

How the results depend on the processing

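The 8 genes called higher in neonatal islets kept that call after both rescalings, with 0.1 added in place of 1 and without the 3 libraries that stood apart, and counts of all genes called ran from 8800 to 9313 when 1 library was left out. Small against large islets depended most on the processing. There 2363 genes and 3 of the 10 were called, against 566 and 1 without a batch term, 4953 and 5 within batch 1, and 0 and 0 within batch 2 and within batch 3 (1496 and 556 genes at an unadjusted p under 0.05). Leaving out 1 library gave 1410 to 2858 genes, 2 to 4 of the 10, and 8 to 18 of the other pathway genes. The count of genes moved by over 1.5 times without large 13 (1550) and small 3 (1574), 4 (1410) or 6 (1551). That of other pathway genes, 17 in all, moved so without large 10 (9), 11 (10), 12 (10) or 13 (11) and small 1 (11), 2 (10), 3 (9), 4 (8) or 6 (11). It was 3 without a batch term and 0 within batch 2 and within batch 3. Small against adult islets within batch 3 gave 5497 genes and 21 other pathway genes. Dll1 turned sign within batch 3 (0.77 for neonatal and 0.76 for large against adult). Rbpj in large against adult islets turned to -0.14 after median-of-ratios rescaling (adjusted p = 0.0431). Notch2 in small against large islets missed the threshold without a batch term (-0.45, adjusted p = 0.0812). The causes were not tested. Low FPKM limits precision most for Hey1.

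The labels state no pairing of samples. Small and large libraries with the same library number within a batch correlated over 0.1 in 6 of 7 pairs (-0.156 to 0.626). Small and adult libraries with the same title number did so in 2 of 6 (-0.102 to 0.145). A pairing of sizes by library number is thus possible, and the main fits treat all libraries as unpaired. With the library number as a replicate block, small against large islets gave 3129 genes, with Dll4 called (0.24, adjusted p = 0.0319) and Rbpj not (-0.20, adjusted p = 0.0643). Jag2 (0.38, adjusted p = 0.00496) and Notch2 (-0.48, adjusted p = 0.00904) stayed called in that fit. With the title number as a replicate block, small against adult islets gave 8394 genes and Dll1 was 0.77 (adjusted p = 0.00063). Small libraries of batch 1 share title numbers only with adult libraries of batch 2, so the batch terms absorb their difference. The estimate therefore rests on the 2 small and 2 adult libraries of batch 3. It equals the difference within batch 3 (0.77) and cannot show an effect of pairing.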
